A study of Oryza sativa with 12 samples.

Results

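The fon2-3 mutant of rice (Oryza sativa) was compared with wild type (WT) through 3 arrays of each genotype, out of 12 arrays in the series. The fon2-3 group carries the fon2-3 allele and no other listed mutation, and the WT group carries no listed mutation. Both were dissected inflorescence meristems at the In1 to In2 stage, taken with a few bracts, from plants grown outdoors in pots. The arrays were chosen by their titles, and every gene with its own probe was used. That gave 15140 genes, of which 1730 carry a gene name and the rest only a locus or clone number. The other 6 arrays were of the double mutant fon2-3 asp1-fe and of asp1-10, 3 each. They enter for the estimate of spread between arrays and for a second look at the fon2-3 allele. The labels do not say whether the 3 arrays of a genotype came from separate plants or harvests, so the p-values reflect the spread among these arrays and no more.

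Growth at the shoot tip of plants is limited by the CLAVATA pathway, in which a small secreted peptide is read by receptor kinases and holds back the stem cells of the meristem. In rice, FON2 encodes such a CLAVATA3-like peptide and FON1 the CLAVATA1-like receptor, and plants that lack either are known for enlarged floral meristems and extra floral organs. KNOX homeobox genes such as OSH1 keep meristem cells undifferentiated, and cytokinin and auxin set where cells divide and where organs form.

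Of the meristem genes used to check the tissue, 8 had a probe: OSH1, OSH15, OSH71, FON1, WOX4, APO2, LAX1 and FZP. OSH1 read 7.998, 8.79 and 8.37 in fon2-3 and 7.24, 8.05 and 7.82 in WT, as log2 signals. These lie above 5.55, the median of all values, on every array. APO2, OSH15 and FON1 did so too. LAX1 was below it in fon2-3 replicates 1 and 3 (5.42 and 4.98) and in WT replicate 1 (4.50). OSH71 was below it in WT replicate 1 (5.14), and WOX4 was at the median in fon2-3 replicate 3 (5.548). FZP, a spikelet meristem gene that acts later, averaged below that median in both genotypes. A mean below it is called dim here, since such a signal may be background, and a change to or from it can be understated. FON2 had no probe under that name and was not analysed here under it. Array medians ran from 5.51 to 5.60 over the series. The mean correlation of an array with the other arrays of its genotype was 0.982 to 0.984 within fon2-3 and within WT. For asp1-10 replicate 3 it was 0.975 with its own genotype and 0.983 with the fon2-3 arrays.

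The fon2-3 meristems differed from WT in 866 genes at an adjusted p below 0.05, which is 5.72% of the genes tested. Of these, 592 were higher in fon2-3 (3.91%) and 274 were lower (1.81%). The rises were smaller than the falls. The median log2 change of the genes that rose was 0.70, and that of the genes that fell was -0.99. At least 2-fold changes numbered 100 among the rises and 133 among the falls. The median over all genes was 0.02. In all 866 genes the 3 fon2-3 arrays lay wholly above or wholly below the 3 WT arrays. Over all genes tested, 3031 lay wholly above (20.0%) and 1851 wholly below (12.2%), so separation on the arrays was far commoner than a call. The largest named rises were of OsGRF1, a growth-regulating factor, CYCD2-2, a cyclin, and MOF1, a MYB-type factor. The largest named falls were of the WRKY factor OsWRKY71, the NAC factor OsNAC6 and SAT1. The share of rises among the calls was sensitive to the scaling of the arrays. Rises and falls numbered 356 and 318 after cyclic loess, 466 and 304 after median centring, and 359 and 360 after quantile normalization.

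**Figure D1:**
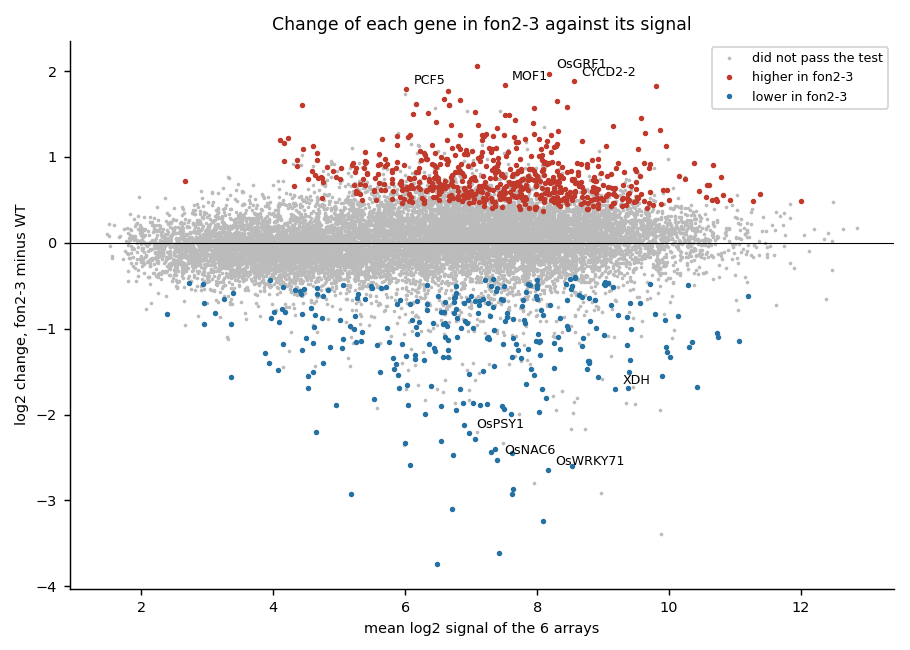
Log2 change of each gene, fon2-3 minus WT, against its mean log2 signal on the 6 arrays. Red points are the 592 genes higher in fon2-3, blue points the 274 lower, and grey points the genes that did not pass the test; the falls reach further from 0 than the rises.

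Which genes passed the threshold depended on single arrays. Without fon2-3 replicate 2, 0 genes were called by limma, although 2886 had an unadjusted p below 0.05 and the smallest adjusted p was 0.065. Without WT replicate 1, the number called was 1. The other arrays of the pair of genotypes gave between 79 calls (without WT replicate 3) and 531 (without fon2-3 replicate 1). In contrast, leaving out asp1-10 replicate 3, an array of neither genotype compared, raised the number to 1329, with all 866 genes among them. With that array left out as well, a setting chosen after seeing the data, the lowest count was 471 without fon2-3 replicate 2, 515 without WT replicate 1 and 509 without WT replicate 3. Of the 866 genes 398, 432 and 437 were then among the calls. The sign of the change was the same in all 866 genes whichever of the 6 arrays was left out. That was fixed in advance, since the fon2-3 and WT arrays of these genes did not overlap. CYCD2-2, MOF1, ORC4, GT43A, OsSCR, OsRR1, PRMT3, HK5, Hox9, HOX24, FOR1 (LOC4343645) and BZIP52 were among the genes that kept the call with 4 of the 6 arrays left out in turn. Of the 866 genes 67 did so, 1 kept it with 5 and 277 with none. OsNAC6, SAT1, OEE3 and HOX4, which are among the largest named changes, were of those 277. Every adjusted p below rests on all 12 arrays and carries this limit.

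**Figure D2:**
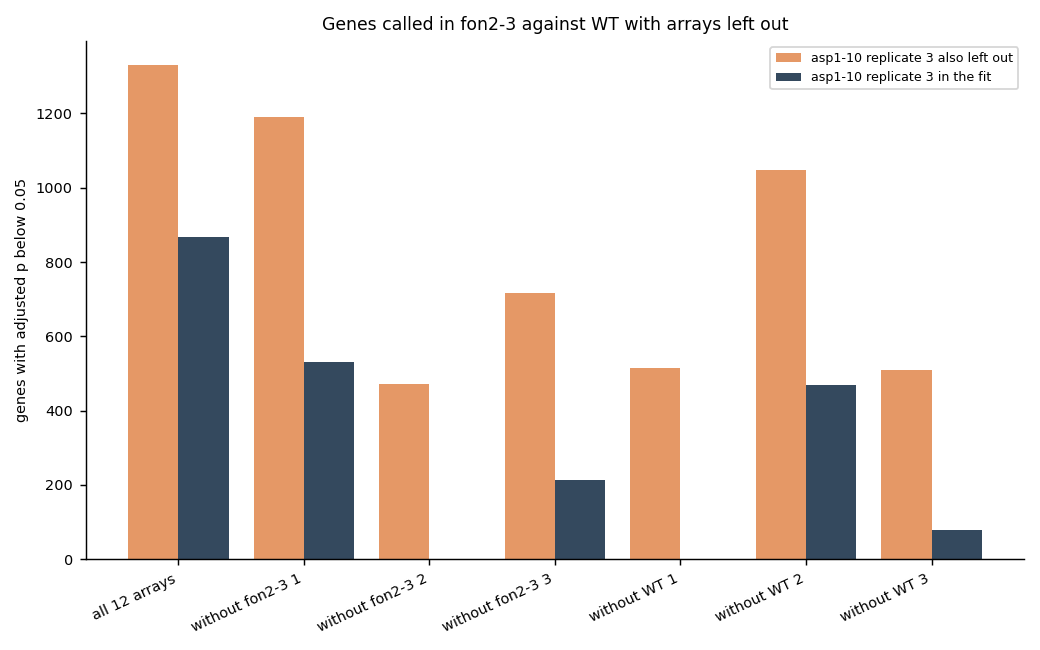
Number of genes with an adjusted p below 0.05 in fon2-3 against WT, with all arrays or without 1 array named on the horizontal axis. Orange bars are fits that also leave out asp1-10 replicate 3, and dark bars are fits that keep it; the dark bars fall to 0 without fon2-3 replicate 2 and to 1 without WT replicate 1, where the orange bars stand at 471 and 515.

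The receptor gene FON1 and the homeobox gene WOX4 did not pass the test. FON1 read 6.47, 7.66 and 6.37 in fon2-3 and 5.57, 5.999 and 6.69 in WT, so the groups overlapped, and its log2 change of 0.75 (SE 0.385) did not pass the test (adjusted p = 0.272). WOX4, a WUSCHEL-type homeobox gene, read 5.92, 5.76 and 5.55 in fon2-3 and 6.04, 6.02 and 5.93 in WT. All its fon2-3 arrays were lower, yet by only 0.26 on average, and the test was not passed (adjusted p = 0.199). Among the 6 measured CLAVATA and WUSCHEL genes 0 were called by limma, beside 5.72% of all genes, and 2 had an unadjusted p below 0.05. Their log2 changes ran from -0.33 to 0.75. OsWOX6, OsWOX7, OsWOX9 and CLE202 were dim in both genotypes. A list of 6 genes is too small to set 0 calls apart from the share over all genes. The corepressor genes ASPR1 and ASPR2, relatives of ASP1, changed by -0.05 (adjusted p = 0.779) and 0.21 (adjusted p = 0.62).

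Of the KNOX and BELL homeobox genes 2 of 7 rose, against 3.91% of all genes. OSH71 read 6.53, 7.07 and 6.67 in fon2-3 and 5.14, 5.99 and 5.93 in WT. OSH15, which in rice also acts in stem elongation, read 7.43, 8.18 and 7.85 in fon2-3 and 6.38, 6.79 and 7.12 in WT. Both KNOX genes were higher on every fon2-3 array than on any WT array, as was every called rise. Their log2 changes were 1.07 (SE 0.238, adjusted p = 0.0333) and 1.06 (SE 0.253, adjusted p = 0.0407). OSH15 missed the threshold after cyclic loess (adjusted p = 0.0532) and quantile normalization (adjusted p = 0.0518), and both genes missed it with only the 6 arrays in the fit (adjusted p = 0.0629 for OSH71 and 0.058 for OSH15). OSH1 was higher by 0.68 with overlapping groups (adjusted p = 0.108). The median log2 change of the 7 genes was 0.68, with 0.02 over all genes.

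OsGRF1, whose family promotes organ growth, read 8.89, 9.74 and 8.88 in fon2-3 and 6.88, 7.52 and 7.20 in WT. Its lowest fon2-3 array was thus more than 1 log2 unit above its highest WT array, and the change was 1.97 (SE 0.394, adjusted p = 0.0259). The other 3 measured genes of its list did not pass the test. Among them GRF6 was the highest, at 0.52 (adjusted p = 0.0875). MOF1, a MYB-type regulator of spikelet determinacy, read 8.01, 8.85 and 8.43 in fon2-3 and 6.54, 6.83 and 6.42 in WT, a change of 1.84 (SE 0.26, adjusted p = 0.0159). It was the only called gene of the 12 measured panicle architecture genes (8.33%, beside 5.72% of all genes). APO2, a regulator of inflorescence meristem fate, was higher by 0.77 without overlap but was not called (adjusted p = 0.0904).

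PCF5, a TCP factor, read 7.03, 6.57 and 7.14 in fon2-3 and 4.99, 5.48 and 4.89 in WT. DOF1, a DOF zinc finger gene, read 6.73, 7.45 and 6.74 in fon2-3 and 5.14, 5.60 and 5.33 in WT. Both WT means lay below 5.55, so the changes of 1.79 for PCF5 (adjusted p = 0.0163) and 1.62 for DOF1 (adjusted p = 0.0169) can understate the difference. All 6 measured TCP genes had positive changes, with 1 called (16.7%, beside 5.72% of all genes). PCF6 came next at 0.65 (adjusted p = 0.0894). Among the 4 DOF genes, DOF4 was higher by 1.35 without overlap and was not called (adjusted p = 0.0726).

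Homeodomain-leucine zipper (HD-ZIP) genes included 4 rises and 1 fall among 17, beside 3.91% of all genes that rose and 1.81% that fell. The list's median change was 0.07. HOX4 read 7.42, 7.98 and 6.98 in fon2-3 and 5.26, 6.26 and 6.05 in WT, higher by 1.60 (adjusted p = 0.0376). The class III members Hox9, hox32 and HOX10, a class known for setting the upper side of leaves and for vascular patterning, rose by 0.96, 0.71 and 0.53 (adjusted p = 0.0163, 0.0187 and 0.0446). Their arrays were tight: Hox9 read 9.22, 9.34 and 9.36 in fon2-3 and 8.16, 8.57 and 8.31 in WT. HOX33 of the same class was higher by 0.45 and did not pass (adjusted p = 0.161). HOX24 fell, at 3.67, 3.69 and 3.97 in fon2-3 and 4.67, 4.78 and 4.32 in WT, with both means below 5.55. OsSCR, a SCARECROW-type GRAS factor, read 4.78, 4.96 and 4.77 in fon2-3 and 3.64, 3.66 and 3.56 in WT. It was dim in both genotypes yet closely grouped, with a change of 1.22 (adjusted p = 0.0163). OsZHD1, a zinc-finger homeodomain gene, rose by 1.20 (adjusted p = 0.0271). SPL6 rose by 0.52 (adjusted p = 0.0338), and was the only call among 6 SPL genes (16.7%, beside 5.72% of all genes).

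**Figure D3:**
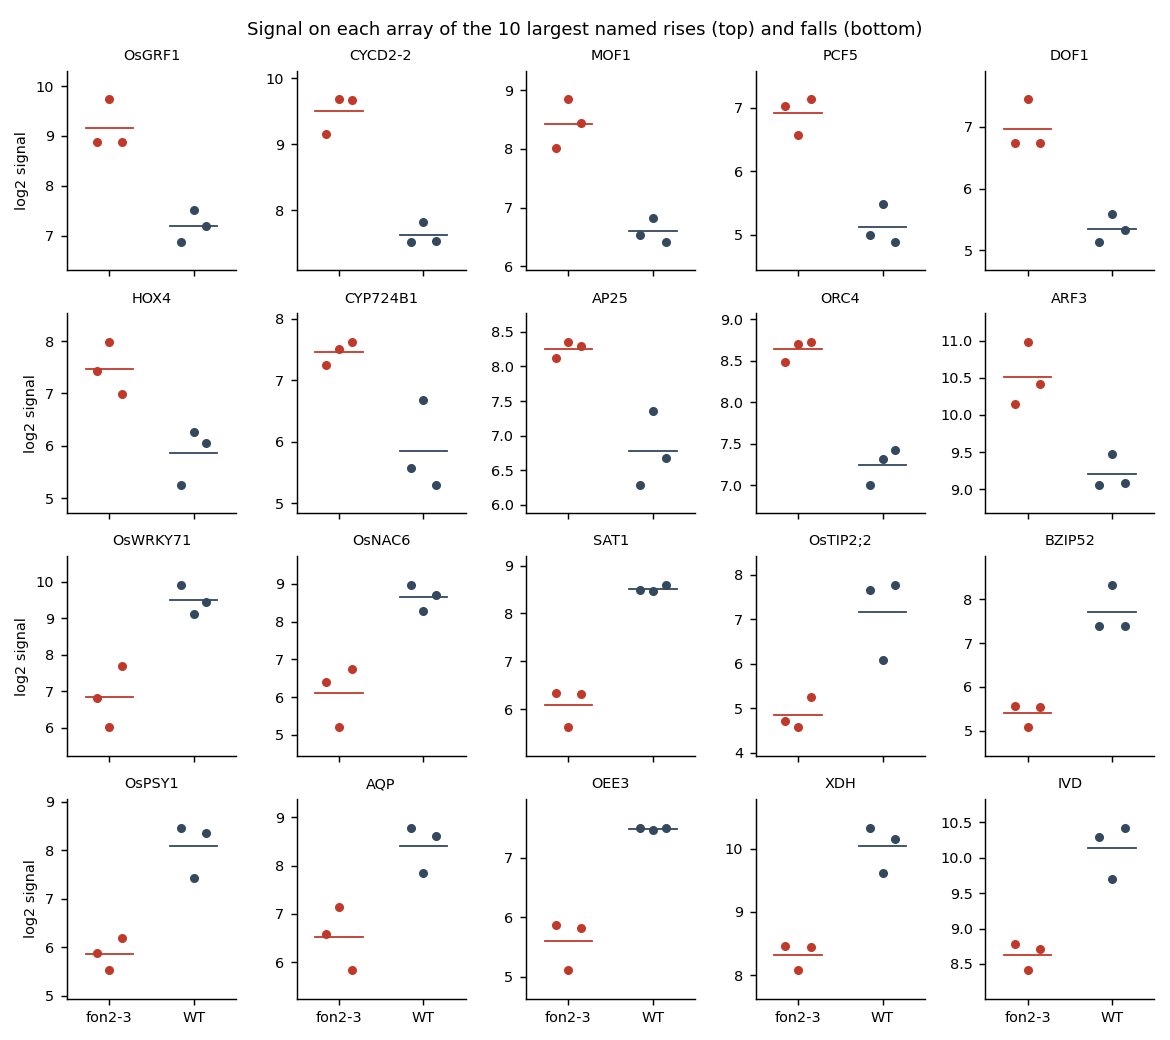
Log2 signal on each array for the 10 largest rises (upper rows) and the 10 largest falls (lower rows) among named genes, fon2-3 in red on the left and WT in dark blue on the right; each point is 1 array and each line the mean of 3. The genes were chosen among calls without overlap between the fon2-3 and WT arrays, and the vertical scale differs between panels.

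Several genes of cell cycle entry and DNA replication rose. Of 49 measured members of the cell cycle and replication list 7 rose and 0 fell, beside 3.91% of all genes that rose and 1.81% that fell. The median log2 change was 0.23, with 0.02 over all genes. CYCD2-2, a D-type cyclin, read 9.15, 9.69 and 9.67 in fon2-3 and 7.52, 7.83 and 7.52 in WT, a 3.68-fold rise (log2 change 1.88, SE 0.272, adjusted p = 0.0159). OsRBR1, a retinoblastoma-related gene through which D-type cyclins act, read 8.91, 8.89 and 9.11 in fon2-3 and 7.42, 8.19 and 7.41 in WT, higher by 1.298 (adjusted p = 0.025). ORC4, a subunit of the complex that marks replication origins, read 8.48, 8.70 and 8.73 in fon2-3 and 7.01, 7.31 and 7.42 in WT, higher by 1.39 (adjusted p = 0.0165). OsMCM6, part of the replication helicase, read 8.49, 8.70 and 9.02 in fon2-3 and 7.29, 8.06 and 7.31 in WT, higher by 1.18 (adjusted p = 0.0411). WT replicate 2 was the highest WT array for OsRBR1 and OsMCM6. The groups did not overlap, as in all 866 called genes. The remaining 3 called members, named after their values were seen, were the helicase gene MCM2 (1.09), the single-strand binding gene OsRPA32 (1.11) and the cyclin CYCD5-3 (0.66).

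Not all cell cycle genes moved that way. MCM3, ORC5, OsRPA70b, CYCD3-2 and CYCD6-1 were higher without overlap, by 0.61 to 0.86, and were not called. The mitotic cyclin CYCB1-1 was lower by 0.57 without overlap (adjusted p = 0.06), and CDKB1-1, a kinase of the later part of the cycle, differed by 0.05. In all, 17 of the 49 were higher without overlap and 5 were lower, beside 20.0% and 12.2% of all genes. The number of rises depended on scaling, at 4 after cyclic loess, where 1 member also fell, and at 5 after median centring and after quantile normalization.

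Auxin response genes included 4 rises. ARF3, an auxin response factor, read 10.15, 10.98 and 10.41 in fon2-3 and 9.06, 9.48 and 9.08 in WT, higher by 1.31 (SE 0.277, adjusted p = 0.0296). It was the only call among 12 ARF genes (8.33%, beside 5.72% of all genes). However, 9 of the 12 were higher on every fon2-3 array, none was lower on every array, beside 20.0% and 12.2% of all genes, and the median change was 0.44. Of the 19 Aux/IAA repressors 3 rose and 0 fell, beside 3.91% and 1.81% of all genes. IAA2 read 7.23, 7.02 and 7.10 in fon2-3 and 5.95, 6.33 and 6.16 in WT, higher by 0.97 (adjusted p = 0.0215). IAA7 and IAA17 rose by 0.85 (adjusted p = 0.0294) and 0.56 (adjusted p = 0.0441). IAA6 had the largest difference of the family, 1.54, but was not called (adjusted p = 0.0636), and IAA26 was lower by 0.76 (adjusted p = 0.062). Of 13 other auxin genes the only call (7.69%, beside 5.72% of all genes) was SAUR39, which in rice represses auxin synthesis. It was dim in both genotypes and lower by 0.70 (adjusted p = 0.0427).

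Genes of cytokinin synthesis, breakdown and signalling gave 4 rises and 1 fall among 26, beside 3.91% and 1.81% of all genes. OsRR1, a type-A response regulator induced by cytokinin, read 7.89, 7.87 and 7.82 in fon2-3 and 6.59, 6.75 and 6.98 in WT, higher by 1.09 (SE 0.157, adjusted p = 0.0159). HK5, a cytokinin receptor kinase, read 7.36, 7.66 and 7.77 in fon2-3 and 6.60, 6.68 and 6.56 in WT, higher by 0.98 (SE 0.147, adjusted p = 0.0163). CKX4, which breaks cytokinin down, rose by 0.87 (adjusted p = 0.0281). OsRR2, another type-A regulator, rose by 0.51 (adjusted p = 0.0403). LOGL3, of the family that releases active cytokinin, was called lower, reading 4.69, 4.31 and 5.28 in fon2-3 and 6.04, 5.48 and 6.19 in WT (change -1.14, adjusted p = 0.0493). Its call was lost after cyclic loess (adjusted p = 0.0579) and quantile normalization (adjusted p = 0.0506), and with only the 6 arrays in the fit (adjusted p = 0.0675). LOG, the founding member of that family and a meristem gene, was higher by 0.40 with adjusted p = 0.445.

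The gibberellin and brassinosteroid list held 1 rise and 1 fall among 23, or 4.35% each way, beside 3.91% and 1.81% of all genes. CYP724B1, a brassinosteroid synthesis enzyme known as DWARF11, read 7.25, 7.51 and 7.62 in fon2-3 and 5.58, 6.68 and 5.30 in WT. The WT arrays were spread over more than 1 log2 unit. They lay below all fon2-3 arrays, as in every called rise (change 1.60, SE 0.303, adjusted p = 0.0219). GA20OX3, a gibberellin synthesis enzyme, fell by 0.70 (adjusted p = 0.0439).

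Cell wall genes gave 5 rises and 0 falls among 65, beside 3.91% of all genes that rose and 1.81% that fell, and their median change was 0.02, the same as over all genes. GT43A, a glycosyltransferase of the family that makes xylan, read 6.51, 6.65 and 6.80 in fon2-3 and 5.34, 5.70 and 5.21 in WT, higher by 1.23 (SE 0.181, adjusted p = 0.0163). The endoglucanase gene GLU8 rose by 1.04 (adjusted p = 0.046), and the cellulose synthase-like genes CSLC2 and CSLD2 rose by 0.74 (adjusted p = 0.0213) and 0.61 (adjusted p = 0.0483). After cyclic loess or quantile normalization 2 of the 65 rose.

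Among 25 chromatin and small RNA genes 3 rose and 1 fell, beside 3.91% and 1.81% of all genes. The DNA methyltransferase MET1 (LOC4342575) rose by 0.74 (adjusted p = 0.0475), the Dicer-like gene DCL4 by 0.60 (adjusted p = 0.0368) and the DNA glycosylase DNG701 by 0.48 (adjusted p = 0.0373), and the Argonaute gene AGO2 fell by 0.84 (adjusted p = 0.0465). After cyclic loess and after quantile normalization none of these rises was called, and 1 fall was. PRMT3, a protein arginine methyltransferase, read 7.59, 7.67 and 7.69 in fon2-3 and 6.64, 6.65 and 6.63 in WT. The arrays of each genotype lay close together, and the change was 1.01 (SE 0.151, adjusted p = 0.0163). Of the 6 measured genes of this enzyme family, examined after the values were seen, PRMT10 (0.94) and PRMT1 (0.93) also rose, and the other 3 were higher by 0.21 to 0.28 and were not called.

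Plastid genes stood among the falls. Of 25 chlorophyll, carotenoid and plastid genes 5 fell and 1 rose, beside 1.81% of all genes that fell and 3.91% that rose. The median log2 change was -0.32, and 12 were lower on every fon2-3 array than on any WT array, beside 12.2% of all genes. The same 5 to 1 split held after cyclic loess, median centring and quantile normalization. OsPSY1, phytoene synthase, the entry step of carotenoid synthesis, read 5.89, 5.52 and 6.18 in fon2-3 and 8.47, 7.43 and 8.35 in WT, a 4.65-fold fall (log2 change -2.22, SE 0.369, adjusted p = 0.0175). EGY2, a plastid membrane protease known from Arabidopsis, read 5.93, 5.94 and 6.08 in fon2-3 and 7.34, 6.94 and 7.66 in WT. OsRSH3, of the RelA/SpoT family that makes the plastid alarmone ppGpp, read 9.32, 9.21 and 9.46 in fon2-3 and 11.04, 10.12 and 10.64 in WT. These genes fell by 1.33 (adjusted p = 0.0279) and 1.27 (adjusted p = 0.0169). RRF, a ribosome recycling factor, fell by 0.89 (adjusted p = 0.0213). NYC1, a chlorophyll b reductase, fell by 0.67 (adjusted p = 0.0403), and is named here after its value was seen. GLK2, a GOLDEN2-like activator of chloroplast genes, went the other way by 0.58 (adjusted p = 0.0339), from means below 5.55 in both genotypes.

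The photosynthesis list, which also serves as the marker of green bract or leaf tissue, had 2 falls and 0 rises among 11, beside 1.81% of all genes that fell and 3.91% that rose. OEE3, a protein of the oxygen-evolving complex, read 5.86, 5.11 and 5.81 in fon2-3 and 7.51, 7.47 and 7.50 in WT (change -1.90, SE 0.413, adjusted p = 0.0323). PSAH, a photosystem I subunit, read 5.26, 4.89 and 4.80 in fon2-3 and 6.55, 5.69 and 6.28 in WT (change -1.19, adjusted p = 0.0214). The mean log2 signal of the 11 genes was 5.70 to 5.89 on the fon2-3 arrays and 6.26 to 6.27 on the WT arrays. The close WT means hide PPDK2, at 5.24, 7.38 and 7.51 in WT, which was not called (change -1.24). Differences were negative in 8 of the 11 genes and positive in LFNR1 (0.40), atpI (0.04) and FNR (0.04). Beside OEE3 and PSAH none was called, so a fall of the list as a whole was not shown. The antenna protein genes CAB1R and CAB2R averaged 2.16 and 2.53 in fon2-3 and 2.48 and 2.98 in WT, below the median of all values in both. In bulk tissue fewer cells of a type and less RNA per cell cannot be told apart, and the part that bract tissue plays in these falls was not tested.

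OsWRKY71, a WRKY factor of defence and of gibberellin signalling, read 6.80, 6.01 and 7.69 in fon2-3 and 9.91, 9.10 and 9.44 in WT, a 6.28-fold fall (log2 change -2.65, SE 0.517, adjusted p = 0.024). OsNAC6, a NAC factor induced by drought and wounding, read 6.41, 5.20 and 6.75 in fon2-3 and 8.97, 8.27 and 8.70 in WT (change -2.53, SE 0.555, adjusted p = 0.0323). In both genes fon2-3 replicate 2 was the lowest array. BZIP52, a bZIP factor, read 5.57, 5.08 and 5.54 in fon2-3 and 7.39, 8.33 and 7.39 in WT (change -2.31, SE 0.347, adjusted p = 0.0163). BZIP39 fell by 0.90 (adjusted p = 0.0415). The other 4 WRKY genes, 6 NAC genes and 13 bZIP genes measured were not called. Calls were thus 20.0%, 14.3% and 13.3% of these lists, beside 5.72% of all genes.

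Of 48 genes of abscisic acid and dehydration, a list that includes protein phosphatases 2C, 2 fell (4.17%, beside 1.81% of all genes) and 0 rose. They were the phosphatases OsPP2C62, by 1.19 (adjusted p = 0.0425), and OsPP2C39, by 0.94 (adjusted p = 0.0476). Of 28 defence genes limma called 0, with 4 at an unadjusted p below 0.05, and of 31 heat shock and chaperone genes it called 0, with 3. Over all genes 5.72% were called. OsC3H2, a CCCH zinc finger gene, fell by 1.33 (adjusted p = 0.0425). It was the only fall among the 38 measured CCCH genes (2.63%), a family tallied after the values were seen, beside 1.81% of all genes. In that family 6 rose by 0.50 to 0.97 (15.8%, beside 3.91% of all genes), among them OsC3H67 (0.97) and OsC3H53 (0.75). FOR1 (LOC4343645), a leucine-rich repeat protein of the polygalacturonase-inhibiting type that in rice affects floral organ number, read 9.14, 9.54 and 9.37 in fon2-3 and 10.54, 10.41 and 10.76 in WT, lower by 1.22 (SE 0.185, adjusted p = 0.0163).

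Of 14 aquaporin genes 2 fell, beside 1.81% of all genes. Both were of the tonoplast type, which passes water across the vacuole membrane. OsTIP2;2 read 4.71, 4.57 and 5.24 in fon2-3 and 7.65, 6.08 and 7.77 in WT (change -2.33, SE 0.421, adjusted p = 0.0213), and its fon2-3 mean lay below 5.55. AQP, which is OsTIP1;1, read 6.58, 7.14 and 5.83 in fon2-3 and 8.79, 7.84 and 8.61 in WT (change -1.90, adjusted p = 0.0323). WT replicate 2 was the lowest WT array for both. The other 12 were not called, and most of them were dim in both genotypes.

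SAT1, listed with amino acid metabolism by its name alone, read 6.33, 5.62 and 6.31 in fon2-3 and 8.48, 8.48 and 8.60 in WT (change -2.43, SE 0.562, adjusted p = 0.0366). XDH, xanthine dehydrogenase of purine breakdown, read 8.46, 8.08 and 8.44 in fon2-3 and 10.33, 9.62 and 10.15 in WT (change -1.71, SE 0.308, adjusted p = 0.0211). IVD, isovaleryl-CoA dehydrogenase of leucine breakdown, read 8.78, 8.41 and 8.71 in fon2-3 and 10.29, 9.70 and 10.43 in WT (change -1.51, adjusted p = 0.0279). These 3 and a rise of 0.50 in the ammonium transporter OsAMT3;1 (adjusted p = 0.0356) were the calls among 20 genes of amino acid, nitrogen and purine metabolism, beside 1.81% of all genes that fell and 3.91% that rose.

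Sugar genes gave 2 rises and 3 falls among 54, or 3.70% and 5.56%, beside 3.91% of all genes that rose and 1.81% that fell. The share of rises was thus near that of all genes, and 0 rose after cyclic loess or quantile normalization. The sugar carrier OsSWEET4 read 10.17, 9.99 and 10.42 in fon2-3 and 11.42, 11.06 and 11.26 in WT (change -1.05, SE 0.17, adjusted p = 0.0165). The hexokinase gene HXK6 was lower by 1.21 with means below 5.55 in both genotypes (adjusted p = 0.0444), and HXK3, another hexokinase gene, was higher by 0.63 (adjusted p = 0.0475). SNRK1B, a kinase of sugar starvation signalling, read 8.81, 8.80 and 8.82 in fon2-3 and 9.78, 9.40 and 9.77 in WT (change -0.84, adjusted p = 0.0315). CIPK15, a kinase known in rice for linking low oxygen to sugar starvation signalling, fell by 1.47 (adjusted p = 0.0425), with 5.59, 4.72 and 4.99 in fon2-3 and 6.42, 6.64 and 6.65 in WT. CIPK10 fell by 0.84 from dim signals (adjusted p = 0.025). CIPK15 and CIPK10 were the only calls among 61 kinases and calcium signalling genes (3.28%, beside 5.72% of all genes called and 1.81% that fell).

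Of 16 clock and flowering genes 1 rose and 1 fell, beside 3.91% and 1.81% of all genes. Ehd4, a promoter of flowering, rose by 0.50 (adjusted p = 0.0308), and PRR37, a clock-related repressor of flowering, fell by 0.48 (adjusted p = 0.0462). Of 21 MADS-box genes the only call was MADS57, which was lower by 0.94 at signals below 5.55 in both genotypes (adjusted p = 0.0187). That was 4.76% of the list, beside 5.72% of all genes called. The anther and tapetum list had a median change of 0.32. In it 2 of 14 genes rose and 0 fell, beside 3.91% and 1.81% of all genes. In it 8 genes were higher without overlap, beside 20.0% of all genes. Both rises were of meiosis genes: OsSPO11B (0.52, adjusted p = 0.0292) and PAIR2 (0.52, adjusted p = 0.0279). Its tapetum factors TDR and UDT1 were dim in both genotypes. Its mean signal was 6.59 to 6.67 on the fon2-3 arrays and 6.31 to 6.42 on the WT arrays, and neither meiosis gene was called after quantile normalization or with only the 6 arrays in the fit (adjusted p = 0.0629 for PAIR2 and 0.0533 for OsSPO11B). Of 6 seed storage genes limma called 0, and 0 had an unadjusted p below 0.05. It also called 0 of 88 ion and metal transport genes (20 at an unadjusted p below 0.05), 56 antioxidant genes (16), 20 jasmonate genes (3), 9 ethylene genes (2) and 10 cytosolic ribosomal protein genes (2). All 10 ribosomal protein genes had positive differences, between 0.00 and 0.60.

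Matches to the list patterns that were removed as aliases of other genes, 114 in all, held 10 rises and 3 falls. Over all genes 3.91% rose and 1.81% fell, beside which these and the following counts stand. With all of them kept, a count added after seeing the data, the cell wall list had 6 rises among 71. The added rise was AP25, which the pattern names outright and which read 8.12, 8.35 and 8.30 in fon2-3 and 6.29, 7.35 and 6.68 in WT (change 1.48, adjusted p = 0.0305). The KNOX and BELL list then had 4 rises among 11, through GL2-5 and GL2-6 of another homeobox class, and the cell cycle list 8 among 54. The plastid list had 6 falls and 1 rise among 32, the added fall being HAP3I, and the kinase list 3 falls among 63, the added one being MEK1, also listed as WNK1. HAP3I and MEK1 too are named outright by the patterns. The chromatin list had 3 rises and 2 falls among 32, the low oxygen list 2 rises and 1 fall among 21, the ion transport list 1 rise among 91 and the defence list 1 rise among 38.

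**Figure D4:**
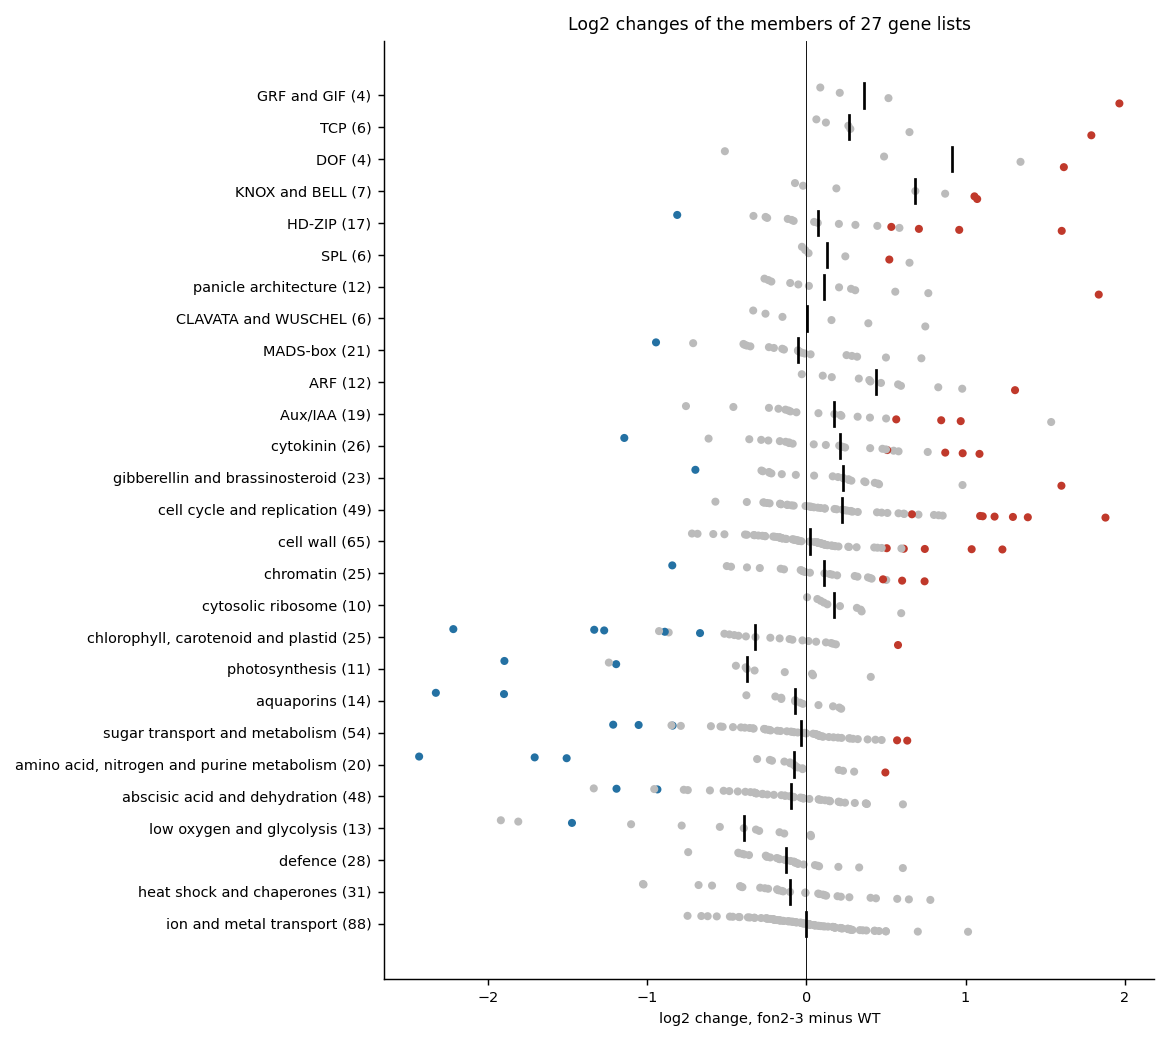
Log2 change, fon2-3 minus WT, of every measured member of gene lists, with the number of members in parentheses. Red points rose, blue points fell, grey points did not pass the test, and black bars are list medians; the KNOX and BELL median stands at 0.68 and the chlorophyll, carotenoid and plastid median at -0.32.

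Some genes varied more between arrays of 1 genotype than between the genotypes. PDC1, pyruvate decarboxylase of fermentation, read 9.55, 5.81 and 7.76 in fon2-3 and 6.02, 11.58 and 10.94 in WT, and NSHB2, a haemoglobin gene, read 4.95, 4.03 and 4.84 in fon2-3 and 4.20, 7.64 and 7.74 in WT. WT replicate 1 was thus on the fon2-3 side for both. PPDK2, pyruvate orthophosphate dikinase, showed the same order, at 5.80, 5.44 and 5.17 in fon2-3 and 5.24, 7.38 and 7.51 in WT. OsC3H37 was lowest in fon2-3 replicate 2, at 10.08, 6.64 and 8.91 in fon2-3 and 9.71, 10.86 and 10.68 in WT.

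The mean over the 13 genes of low oxygen and glycolysis was 6.83 to 7.39 on the fon2-3 arrays and 7.02 to 8.24 on the WT arrays. Beside CIPK15 none of them was called. LAX1, a bHLH regulator that starts axillary meristems, read 5.42, 9.33 and 4.98 in fon2-3 and 4.50, 7.13 and 7.18 in WT. CCR1, a cinnamoyl-CoA reductase gene by name, spanned 3.50 to 6.87 in WT. The morning clock gene LHY read 6.88, 9.83 and 6.79 in fon2-3 and 9.43, 8.43 and 8.38 in WT. OsPCL1, a clock gene active in the evening, read 5.19, 3.45 and 6.80 in fon2-3 and 4.42, 5.38 and 5.79 in WT. Replicate 2 of fon2-3 was thus the highest of its group for LAX1 and LHY and the lowest for PDC1, OsC3H37 and OsPCL1. Neither batch nor hour of harvest is in the labels, which leaves no within-batch values, and the part of sampling time was not tested.

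The fon2-3 allele was also present in the double mutant, which was set against asp1-10. This contrast shares no array with fon2-3 against WT. The asp1 alleles of its lines differ, so allele and fon2-3 cannot be told apart there. In it 3 genes were called, or 0.0198% of the genes tested. Of the 866 genes called in fon2-3, limma called 0 in the same direction in the asp1 lines, and 120 had an unadjusted p below 0.05 there. The sign was nevertheless shared by 637 of the 866 (73.6%), by 447 of the 592 rises and 190 of the 274 falls, beside 57.9% of all genes. The median log2 change in the asp1 lines was 0.12 for genes that rose in fon2-3 and -0.13 for genes that fell. The shared sign depended on which asp1-10 arrays were kept. Without asp1-10 replicate 3, 86.1% of the 1329 calls had the same sign, beside 62.7% of all genes, and 10 were called. Without replicate 2 it was 60.2% of 747 calls, beside 53.6%, and without replicate 1 it was 65.5% of 716, beside 53.8%.

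Values on all 12 arrays show where the named genes stood. OsGRF1 read 8.77, 9.95 and 9.62 in the double mutant and 7.63, 8.80 and 8.95 in asp1-10. MOF1 read 8.54, 8.85 and 8.97 in the double mutant and 7.32, 7.86 and 8.30 in asp1-10. For both genes every array of both asp1 lines was above every WT array. OSH71 had similar readings in both asp1 lines, at 6.61, 6.90 and 7.14 in the double mutant and 6.83, 6.91 and 7.20 in asp1-10, all above its WT arrays. HK5 likewise read 7.43, 7.28 and 7.71 in the double mutant and 7.71, 7.43 and 7.71 in asp1-10.

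Among the falls, OsPSY1 read 6.36, 6.02 and 5.81 in the double mutant and 6.78, 6.88 and 5.52 in asp1-10. XDH read 8.43, 8.20 and 8.38 in the double mutant and 9.29, 9.47 and 8.12 in asp1-10. SAT1 read 6.76, 6.08 and 6.52 in the double mutant and 8.82, 8.47 and 6.02 in asp1-10. In these 3 genes asp1-10 replicate 3 was below every double mutant array, and the other asp1-10 arrays were above every one.

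The difference of the effects, that in the asp1 lines minus that in the lines without an asp1 mutation, was called for 4 genes (0.0264%), and 2059 genes had an unadjusted p below 0.05. None of the 4 has a name, and they were singled out after their values were seen. LOC4344111 read 7.41, 7.28 and 7.40 in fon2-3 and 6.33, 6.31 and 6.06 in WT, and 7.10, 7.12 and 7.12 in the double mutant against 7.36, 7.28 and 7.74 in asp1-10. LOC4326339 read 6.51, 7.001 and 7.08 in the double mutant and 3.88, 3.45 and 3.98 in asp1-10, but was dim in fon2-3 (4.23, 4.01 and 3.69) and in WT (3.31, 3.52 and 4.05). LOC4326339 was therefore high only in the double mutant among the 4 genotypes, and was 1 of the 3 genes called in the asp1 lines, with LOC4341024 and DL. DL, a YABBY gene of carpel and midrib development, read 10.22, 10.14 and 10.24 in the double mutant and 8.52, 8.61 and 8.99 in asp1-10. In fon2-3 it read 10.04, 9.57 and 10.18, and in WT 10.14, 10.38 and 10.06, with overlapping values (adjusted p = 0.396).

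**Figure D5:**
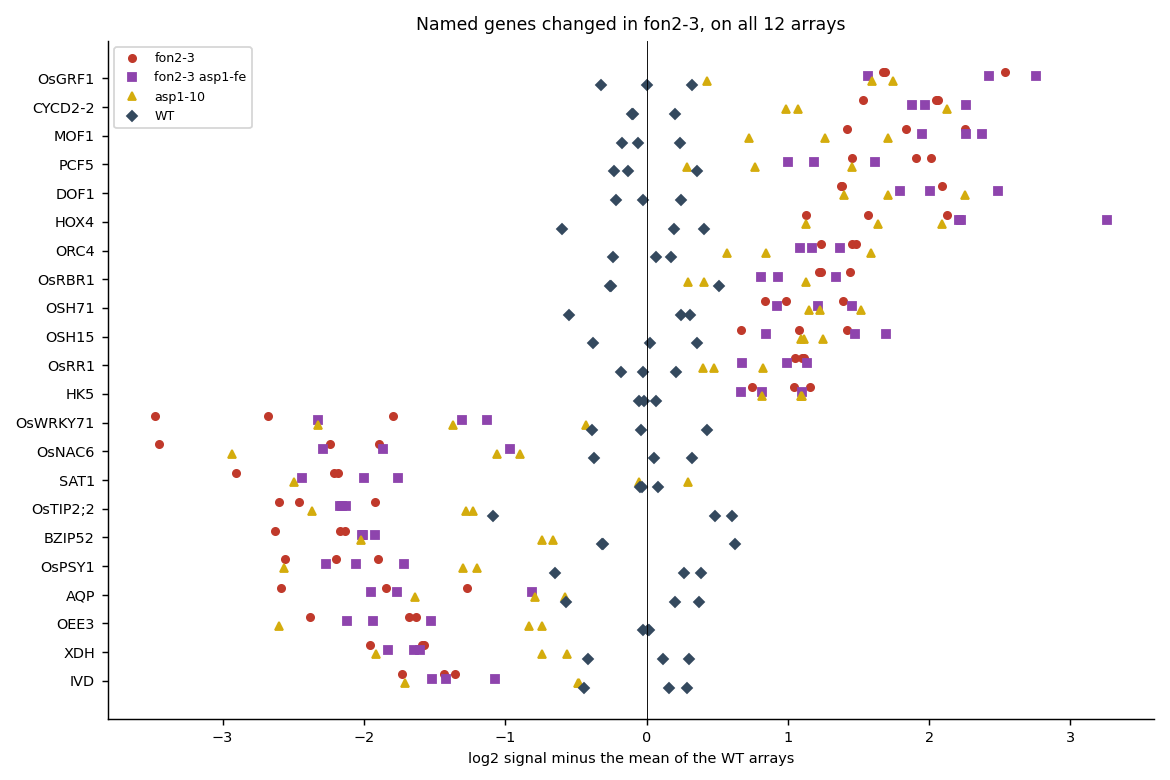
Log2 signal of named genes on each of the 12 arrays minus the mean of the WT arrays; red circles are fon2-3, purple squares fon2-3 asp1-fe, yellow triangles asp1-10 and dark diamonds WT. The fon2-3 and double mutant arrays lie on the same side of WT in every gene, and for several falls 1 of the 3 asp1-10 arrays lies with fon2-3 while the other 2 lie nearer to WT.

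Genes with no name other than a locus number held the extremes. LOC4329519 read 8.07, 8.41 and 7.90 in fon2-3 and 5.78, 6.84 and 5.56 in WT, the largest rise of all called genes (2.06, adjusted p = 0.0163), and LOC9270706 rose by 1.82 (adjusted p = 0.0163). LOC4341305 read 4.42, 4.84 and 4.60 in fon2-3 and 8.58, 7.55 and 8.93 in WT, the deepest fall (change -3.74, SE 0.511, adjusted p = 0.0135). LOC4332506 read 5.83, 5.17 and 5.82 in fon2-3 and 9.48, 8.76 and 9.42 in WT (change -3.61, adjusted p = 0.0185). The called genes were spread over all 12 chromosomes, by the gene order of the rice assembly ASM3414082v1. The share called ran from 4.50% of the genes with a probe on chromosome 11 to 6.68% on chromosome 9. There were 4 places where 3 neighbouring genes with a probe were all called, and at 1 of them, on chromosome 9, all 3 rose.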

How the data were processed

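Total RNA of rice inflorescence meristems was labelled with biotin and hybridised to 12 Affymetrix arrays, 3 for each of 4 genotypes. The deposited values are log2 signals, which the authors made with Affymetrix Expression Console 1.3, per the submitters' processing notes. The sources used here do not give background correction, normalization, summarisation, log base or genome build. Base 2 was taken from the range of the values. Of 54922 probes, 15829 had 1 gene listed, 440 several and 38653 none, in the platform's gene table. Where a gene had several probes (627 genes), its brightest probe by the mean of the 12 arrays was kept. Names came from the gene table of assembly ASM3414082v1, in which all 15140 genes were found.

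Genotype means were estimated from all 12 arrays by limma 3.58.1 (lmFit, eBayes) in R 4.3.3, with 8 residual degrees of freedom. Two-sided p-values received Benjamini-Hochberg adjustment over all 54922 probes, with a threshold of 0.05. Rose, fell and called mean an adjusted p below it. With 3 arrays against 3, exact permutation reaches no p below 0.1 and was not used. The 3 arrays per genotype limit the precision. The fit was tested on simulated data, in which 50 probes for each size of change were altered in fon2-3. It recovered 4% of log2 changes of 0.5, 72% of 1.0, 98% of 2.0 and 100% of 3.0. A gene that was not called is therefore not shown to be unchanged.

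Named genes were the core genes FON1, WOX4, OSH1, OSH15, OSH71, ASPR1 and ASPR2, the 15 largest rises and 15 largest falls among called named genes without overlap, and the called members of each list, 4 at most. Added to these were the 10 most stable calls, the 5 most variable genes of each genotype and at most 2 unnamed rises and 2 falls. The 43 lists are symbol patterns, from which 114 matches were removed by name as aliases of other genes. Among these, AP25, HAP3I and MEK1 are named outright by the patterns. The removal of 2 others (the SPO11 genes in the cell cycle list) came after their values had been printed. The root list then had no measured member, and 5 before, of which ER2 and HK5 rose. Members named as not called were picked after their values were seen. Members and lists were chosen with earlier results of these data known.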

Additional observations from a re-analysis of the deposited data

Results flagged for a closer look

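The test of the difference between the effect of fon2-3 in the asp1 lines (fon2-3 asp1-fe minus asp1-10) and in the lines without an asp1 mutation (fon2-3 minus WT) passed the adjusted threshold for 4 genes, all without a name. LOC4340483 differed by -1.30 on the log2 scale (SE 0.154, adjusted p = 0.0422): it read 7.71, 7.80 and 7.81 in fon2-3 and 6.85, 6.96 and 6.91 in WT, and 7.55, 7.53 and 7.49 in the double mutant against 7.95, 7.78 and 8.14 in asp1-10. LOC4341846 differed by -1.07 and LOC4344111 by -1.48 (adjusted p = 0.0497 for each). In these 3 genes fon2-3 was above WT on every array, and the double mutant was below asp1-10 on every array. LOC4326339 differed by 2.74 (adjusted p = 0.0422), high in the double mutant alone. The asp1 alleles of the double mutant and of asp1-10 differ, so allele and fon2-3 cannot be told apart. Groups of 3 arrays were too small for the test for single far arrays.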

How the results depend on the processing

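The log2 change of each of the 76 called genes among those followed through all settings kept its sign under every alternative run. With arrays left out this was fixed in advance, since the fon2-3 and WT arrays of these genes did not overlap. The call itself was less stable. Genes changed in fon2-3 against WT numbered 866, and 1568 with dim probes left out, 1376 with array weights, 469 with the replicate block and 233 at an absolute log2 change of at least 1. With only the 6 arrays compared in the fit, 683 were called, and 539 of them were among the 866. Of the 76, 60 kept the call in that fit. Same-numbered fon2-3 and WT arrays did not deviate together (correlations -0.045, -0.031 and -0.027), so the numbers were not taken as pairs. Between 0 and 1329 were called when arrays were left out. Of the 76, 0 kept the call without fon2-3 replicate 2 and 0 without WT replicate 1, and 51 and 50 kept it where asp1-10 replicate 3 was left out too, a setting added after seeing the data. Calls that were also called in the asp1 lines numbered 0, 1 with dim probes left out, 1 with a variance trend and robust prior, and 0 to 13 with arrays left out. Calls with the same sign there numbered 637, and 1116, 1073, 352 and 188 with dim probes left out, array weights, the replicate block and the fold limit, and 0 to 1144 with arrays left out. Genes whose effect differs between lines numbered 4, and 1 after cyclic loess, 2 after median centring, 2 after quantile normalization, 15 with dim probes left out, 7 with the trend and robust prior, 1 with the replicate block, 16 when adjusted over 1 probe per gene, and 0 to 8 with arrays left out. The cause of these moves was not tested. Genes not called that changed sign were OsPCL1 (0.08 with array weights; -0.88 to 0.80 with arrays left out), LAX1 (-1.07 to 1.11), CCR1 (-0.75 to 0.93), ASPR2 (-0.04 to 0.49) and LOC4326339 (-0.28 for its lowest-mean probe). With only the 6 arrays compared the difference between lines could not be fitted. Probes dimmer than the median of all values limit what can be said of low genes: 71 of the 866 calls were below it in both genotypes.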
